A study of Mus musculus with 24 samples.

Results

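The genes described here are 9 neuropeptide precursor genes (Gal, Npy, Vip, Tac1, Calca, Calcb, Sst, Adcyap1 and Nppb) and Pam, which encodes peptidylglycine alpha-amidating monooxygenase. They are a list of named genes, drawn up with earlier results of these data known and with no threshold on a measured value, and all 10 were found among the 24421 symbols of the RNA-seq table and the 24411 symbols of the MeRIP-seq table. The tissue was the L4/5 dorsal root ganglion (DRG) of C57BL/6 mice, which holds the cell bodies of the sensory neurons that project into the sciatic nerve. RNA-seq covered 4 groups of 3 libraries: wild type naive, wild type 1 day after a sciatic nerve lesion (SNLD1), and naive and SNLD1 ganglia of Mettl14cKO mice, a conditional mutant of the Mettl14 subunit of the m6A methyltransferase that the labels list as Mettl14-/-. MeRIP-seq, in which fragments that carry the RNA modification m6A are pulled down with an antibody (IP) and sequenced beside the unselected RNA (input), covered wild type only, with 3 IP and 2 input libraries in each of naive and SNLD1. miCLIP, which marks single m6A bases by mutations in reads, covered 1 naive and 1 lesioned (SNL, no day given) wild-type library. The sources used here do not give the Cre line, the cells in which Mettl14 was deleted, the age of the mice, or whether the naive animals had the sham operation that the treatment label mentions. The labels do not say whether the libraries of a group came from separate animals, so p-values measure the spread between these libraries, which may be technical.

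Neuropeptides are made as longer precursors that enter dense core vesicles, where prohormone convertases cut them, a carboxypeptidase trims the cut ends, and Pam converts an exposed glycine into a carboxy-terminal amide in a step that needs copper and ascorbate. Substance P (from Tac1), calcitonin gene-related peptide (CGRP, from Calca and Calcb), neuropeptide Y (Npy), vasoactive intestinal peptide (Vip), the pituitary adenylate cyclase-activating peptide PACAP (Adcyap1) and mouse galanin (Gal) are amidated, whereas somatostatin (Sst) and B-type natriuretic peptide (Nppb) are not. In sensory ganglia, Tac1, Calca and Adcyap1 mark peptidergic nociceptors, Sst and Nppb mark a group of itch neurons, and Gal, Npy, Vip and Adcyap1 are known as peptides of axotomised neurons.

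The promoter of Adcyap1 is shown because it was the member whose RNA rose after the lesion in both genotypes, beside the stretches of the other members that hold the same element. RefSeq windows of GRCm38.p6, 250 bases before to 50 bases after a transcription start, were found for 9 of the 10 members (none for Calcb). They were searched on both strands for TGACGTC, taken from the cyclic AMP response element (CRE), and for TGANTCA, the AP-1 element. TGACGTC was present in 3 members, Vip, Sst and Adcyap1, beside 3.6% of all 27025 genes with a window. In Sst the element and its reverse complement overlap to form a palindrome. The 250 bases before the first Adcyap1 start lie at chr17:93198767-93199016 on the plus strand. The Vip stretch lies at chr10:5639127-5639157 on the plus strand and the Sst stretch at chr16:23890874-23890904 on the minus strand. The element also lies 242 bases before a second Adcyap1 start. Capitals mark the element, which begins 91 bases before the start in Adcyap1, 79 in Vip and 48 in Sst.
Adcyap1: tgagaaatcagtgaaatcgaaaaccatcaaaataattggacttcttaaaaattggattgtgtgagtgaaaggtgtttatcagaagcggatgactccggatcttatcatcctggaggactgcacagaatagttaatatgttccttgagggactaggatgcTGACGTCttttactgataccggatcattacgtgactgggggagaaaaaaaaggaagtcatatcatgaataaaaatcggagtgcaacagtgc
Vip: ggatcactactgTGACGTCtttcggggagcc
Sst: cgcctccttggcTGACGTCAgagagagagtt
AP-1 letters were found in 0 of the 9 members with a window, beside 8.97% of all genes with one. These matches describe the letters of the windows and do not show that a factor was bound.

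Levels are given in CPM, the counts of a gene scaled to library totals after TMM normalization. They compare 1 gene across libraries and do not rank genes, since transcript lengths were not used. RNA-seq totals lay between 5707837 and 12639160 counts. Mettl14, the targeted gene, was lower in every Mettl14cKO library than in every wild-type library (naive 16.03 ± 2.49 against 23.4 ± 0.605 CPM, SNLD1 15.6 ± 1.35 against 20.1 ± 0.650; SD, n = 3). Over both conditions its difference passed edgeR's quasi-likelihood test with Benjamini-Hochberg adjustment (log2 fold change -0.46, SE 0.12, adjusted p = 0.0450), and it was lost when any of 11 of the 12 libraries was left out (adjusted p 0.0606 to 0.142). The comparisons below share libraries (each group enters an injury and a genotype comparison, and the averaged ones use all 12), so their results are not independent. Counts outside a deleted part of the gene do not check the deletion. Atf3, an injury-induced transcription factor, rose in both genotypes (wild type 9.67 to 376 CPM, Mettl14cKO 16.3 to 178 CPM). The 8 pan-neuronal markers together made up 9849 to 13259 CPM, and the 7 peptidergic nociceptor markers 209 to 277 CPM, with no marker of either list at 0 in a group.

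**Figure D1:**
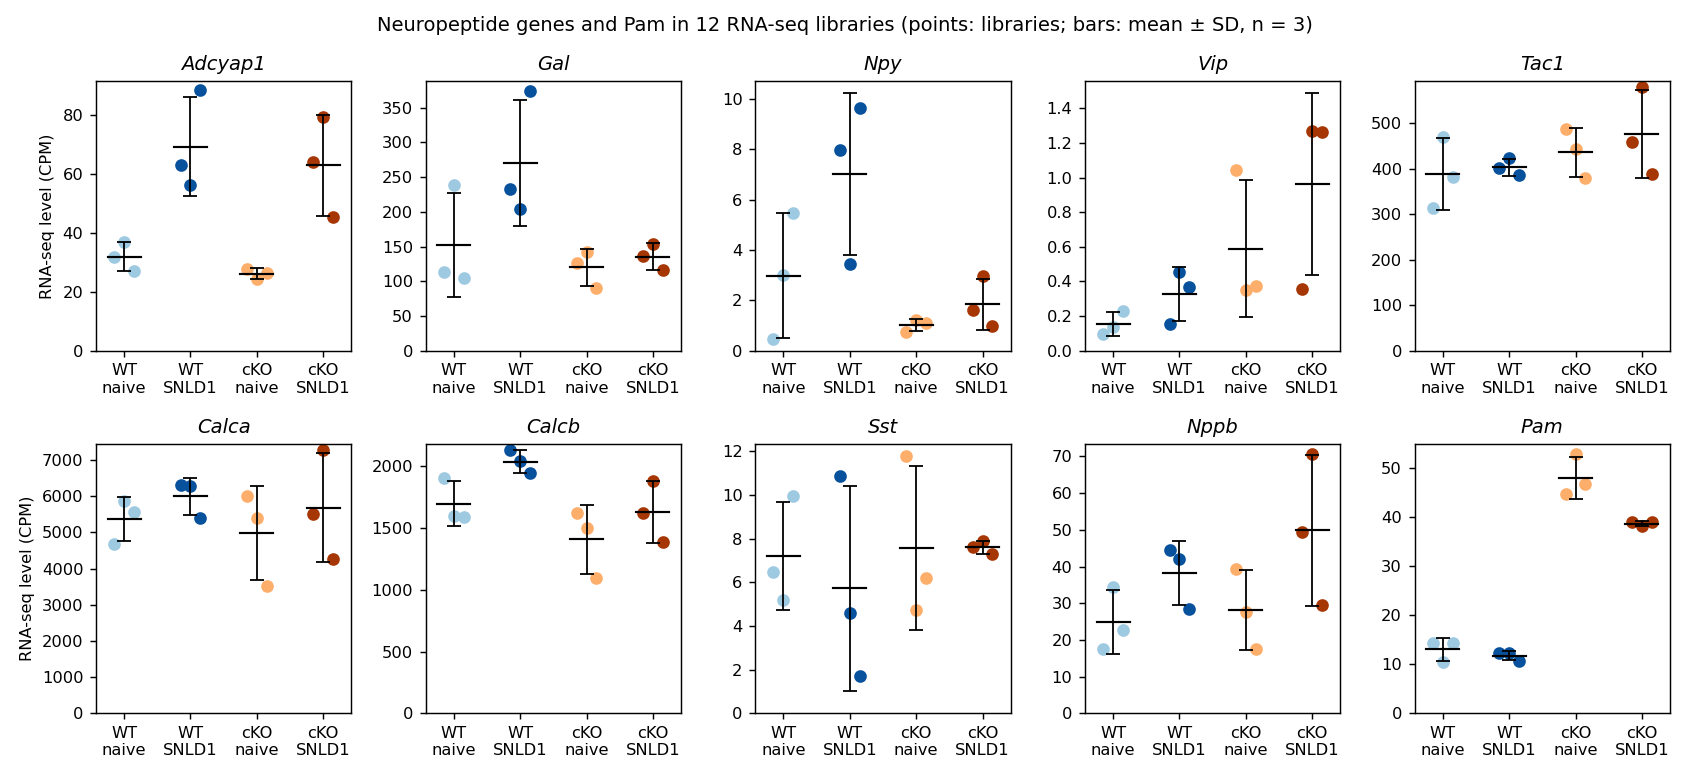
RNA-seq level of each gene in CPM (vertical axis, from 0, a separate scale for each gene) in the 4 groups. Points are single libraries, and the bars give the mean ± SD of 3 libraries. Pam lies between 38.0 and 52.7 CPM in all 6 Mettl14cKO libraries and between 10.4 and 14.4 CPM in all 6 wild-type libraries.

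Adcyap1 encodes PACAP, a peptide that acts through receptors coupled to cyclic AMP. Its level was 31.9, 36.9 and 27.1 CPM in the wild-type naive libraries and 63.2, 56.5 and 88.5 CPM in the wild-type SNLD1 libraries. In Mettl14cKO it was 27.8, 24.3 and 26.5 CPM in naive and 64.3, 79.5 and 45.3 CPM in SNLD1 libraries. All SNLD1 libraries lay above all naive libraries, in each genotype and across both. Adcyap1 rose 2.18-fold in wild type (log2 1.12, SE 0.21, adjusted p = 0.0104) and 2.41-fold in Mettl14cKO (log2 1.27, SE 0.22, adjusted p = 0.00498) by edgeR. It was the 1 member of the 9 tested that passed in wild type, where 1.02% of 13291 genes tested passed in either direction and 0.948% as higher. It was also the 1 that passed in Mettl14cKO, where 0.685% of genes passed and 0.624% as higher. Averaged over genotypes the rise was 2.29-fold (log2 1.19, SE 0.15, adjusted p = 9.68e-05), again with 1 member of 9 beside 2.56% of all genes in either direction and 2.02% as higher. The wild-type call was lost without naive library 1, naive library 3 or SNLD1 library 3 (adjusted p 0.0693, 0.0918 and 0.103), whereas the Mettl14cKO call passed without any 1 of its 6 libraries. In a bulk ganglion, more cells of a type and more RNA per cell cannot be told apart.

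The injury effect on Adcyap1 differed between genotypes by log2 0.14 (95% interval -0.48 to 0.77, adjusted p = 0.998). No member passed this test of the difference, and 0% of all genes did by edgeR, with 492 genes and 0 members at an unadjusted p under 0.05. DESeq2 passed 3 genes, none of them a member. The genotype effect on Adcyap1 was log2 -0.28 (95% interval -0.74 to 0.17) in naive and -0.14 (-0.58 to 0.30) in SNLD1 ganglia.

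Gal encodes galanin, a peptide of axotomised sensory neurons. In wild type it stood at 114, 239 and 105 CPM in the naive libraries and at 233, 204 and 374 CPM after the lesion. The second naive library lay above 2 of the 3 lesioned libraries, so the groups overlapped. In Mettl14cKO the levels were 127, 143 and 90.1 CPM in naive and 137, 154 and 116 CPM in SNLD1 libraries, also with overlap. The injury effect did not pass edgeR's test in wild type (log2 0.82, SE 0.28, adjusted p = 0.299) or in Mettl14cKO (log2 0.18, SE 0.28, adjusted p = 0.868). With no filter on low counts the wild-type effect passed (log2 0.82, edgeR adjusted p = 0.000671), in a setting that passed 256 genes in place of 136. Without wild-type naive library 2, the wild-type value was log2 1.30 and passed (adjusted p = 0.0135), and so did the value averaged over genotypes (log2 0.74, adjusted p = 0.0186, against 0.50 and 0.259 with all libraries).

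After the lesion all 3 Mettl14cKO libraries held less Gal than the lowest wild-type library, 116 to 154 against 204 to 374 CPM. This difference of log2 -0.996 (95% interval -1.59 to -0.40) missed edgeR's threshold (adjusted p = 0.0850) and passed in DESeq2 (adjusted p = 0.0244) and in edgeR with no filter on low counts (adjusted p = 5.82e-06). Averaged over conditions, the genotype effect on Gal was log2 -0.67 (SE 0.20, edgeR adjusted p = 0.0753, DESeq2 adjusted p = 0.0237). It also passed in edgeR with no filter (adjusted p = 1.11e-05), and without wild-type naive library 3 (adjusted p = 0.0432) or wild-type SNLD1 library 2 (adjusted p = 0.0475). Calls over all genes in this comparison were 442 in edgeR, 640 in DESeq2 and 857 with no filter. The injury effect on Gal in Mettl14cKO minus that in wild type was log2 -0.65 (95% interval -1.48 to 0.19, unadjusted p = 0.120), so a difference in the response to the lesion was not shown.

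Npy encodes neuropeptide Y, which sympathetic neurons also make. The counts were low, with 5 to 79 counts a library in wild type and 5 to 21 in Mettl14cKO. Wild-type naive libraries stood at 0.484, 3.0 and 5.47 CPM and wild-type SNLD1 libraries at 7.97, 3.43 and 9.64 CPM. Mettl14cKO libraries stood at 0.747, 1.22 and 1.12 CPM in naive and at 1.60, 2.96 and 0.982 CPM in SNLD1 ganglia. After the lesion the highest Mettl14cKO library lay below the lowest wild-type library, whereas in naive ganglia wild-type library 1 lay below all 3 mutant libraries.

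Averaged over conditions, Npy was 3.31-fold lower in Mettl14cKO (log2 -1.73, SE 0.45, edgeR adjusted p = 0.0408), 1 of 2 members that passed this comparison, beside 3.33% of all genes. It was the 1 that passed as lower, beside 1.29% of genes, and Pam the 1 that passed as higher, beside 2.04%. The call was lost without any of 9 of the 12 libraries (adjusted p 0.0577 to 0.138). Within single conditions the difference did not pass in edgeR (naive log2 -1.56, adjusted p = 0.612, and SNLD1 log2 -1.90, adjusted p = 0.123). With no filter on low counts it passed in both (edgeR adjusted p = 0.0362 and 0.000129). Calls over all genes with no filter were 191 in place of 38 in naive and 570 in place of 194 in SNLD1 ganglia. The injury effect on Npy was log2 1.19 in wild type (95% interval 0.06 to 2.32, adjusted p = 0.624) and 0.85 in Mettl14cKO (-0.69 to 2.38, adjusted p = 0.730). Of 8 sympathetic neuron markers, Phox2a and Hand2 were at 0 in every group and Dbh in wild-type naive, 2 were tested and 0 passed in either genotype comparison by edgeR or DESeq2. Their summed level was 36.6 to 57.1 CPM in wild-type naive, 38.9 to 47.3 in wild-type SNLD1, 42.3 to 55.4 in Mettl14cKO naive and 24.9 to 45.7 in Mettl14cKO SNLD1 libraries. Their part in the Npy values was not tested.

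Vip encodes vasoactive intestinal peptide and was near the limit of detection. Wild-type libraries held 1 to 4 counts, and Mettl14cKO libraries 2 to 9 counts. The gene did not pass the filter on low counts and was not tested. In naive ganglia the 3 mutant libraries, at 1.05, 0.349 and 0.372 CPM, lay above the 3 wild-type libraries, at 0.0967, 0.136 and 0.228 CPM. After the lesion the groups overlapped, at 0.355, 1.27 and 1.26 CPM in Mettl14cKO and at 0.153, 0.457 and 0.366 CPM in wild type.

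Tac1 encodes the precursor of substance P and neurokinin A. Its level was 313, 470 and 382 CPM in wild-type naive and 401, 423 and 386 CPM in wild-type SNLD1 libraries. It was 487, 443 and 379 CPM in Mettl14cKO naive and 460, 579 and 388 CPM in Mettl14cKO SNLD1 libraries. The groups overlapped in every comparison. The fitted injury effects were log2 0.06 (95% interval -0.31 to 0.43) in wild type and 0.12 (-0.24 to 0.49) in Mettl14cKO, and the genotype effects 0.17 (-0.20 to 0.54) in naive and 0.24 (-0.13 to 0.61) in SNLD1 ganglia.

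Calca and Calcb encode the 2 forms of CGRP, and Calca also encodes calcitonin. The genes are similar to each other and lie on chromosome 7 (Calca at 114625981 to 114636910 and Calcb at 114716555 to 114723368, GRCm38.p6), so the split of reads between them depends on the authors' counting and is uncertain. Calca stood at 5364 ± 612 CPM in wild-type naive, 5989 ± 520 in wild-type SNLD1, 4975 ± 1295 in Mettl14cKO naive and 5675 ± 1507 in Mettl14cKO SNLD1 libraries (SD, n = 3). The largest of its 4 fitted differences between groups in size was log2 0.19 (Mettl14cKO injury, 95% interval -0.24 to 0.62), and none passed. Calcb stood at 1907, 1598 and 1592 CPM in wild-type naive and 2131, 2041 and 1946 CPM in wild-type SNLD1 libraries, with every lesioned library above every naive one. The fitted rise was log2 0.26 (95% interval -0.09 to 0.61, adjusted p = 0.870). In Mettl14cKO, Calcb was 1625, 1504 and 1095 CPM in naive and 1624, 1884 and 1386 CPM in SNLD1 libraries. After the lesion all 3 mutant values lay below the wild-type values, with a fitted difference of log2 -0.32 (95% interval -0.67 to 0.03, adjusted p = 0.400). Averaged over conditions it was -0.30 (95% interval -0.54 to -0.05, adjusted p = 0.198).

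Nppb encodes B-type natriuretic peptide, a transmitter of itch neurons. Its level was 17.5, 34.4 and 22.7 CPM in wild-type naive and 44.5, 42.1 and 28.3 CPM in wild-type SNLD1 libraries. In Mettl14cKO it was 39.3, 27.6 and 17.6 CPM in naive and 49.4, 70.7 and 29.5 CPM in SNLD1 libraries. In both genotypes the means were higher after the lesion while the libraries overlapped. The injury effect was log2 0.63 in wild type (95% interval -0.04 to 1.30, adjusted p = 0.737) and 0.83 in Mettl14cKO (0.15 to 1.5, adjusted p = 0.327). Averaged over genotypes it was 0.73 (SE 0.23, adjusted p = 0.112), and it passed without wild-type naive library 2 (adjusted p = 0.0472) or Mettl14cKO SNLD1 library 3 (adjusted p = 0.0276). With no filter on low counts, Nppb passed in Mettl14cKO (edgeR adjusted p = 0.00654) and averaged over genotypes (adjusted p = 5.00e-05). Calls over all genes in that setting were 281 in place of 91 in Mettl14cKO and 560 in place of 340 averaged over genotypes.

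With the lesion averaged over genotypes, 1 marker passed by edgeR in each of 2 lists of itch neuron markers. These were Il31ra, higher, of 7 markers of Nppb and Sst neurons, and Mrgpra3, lower, of 3 markers of another group. The directions of the other markers are not given here, so these 2 genes do not stand for their lists. Of the 7 markers of Nppb and Sst neurons, all tested, 0 passed within either genotype by edgeR or DESeq2, with 3 in wild type and 1 in Mettl14cKO at an unadjusted p under 0.05. Averaged over genotypes 1 passed by each tool. This was Il31ra, an interleukin receptor subunit, which rose from 9.50 to 15.6 CPM (log2 0.72, SE 0.19, edgeR adjusted p = 0.0479), a call lost without any of 10 of the 12 libraries (0.0505 to 0.137). Mrgpra3, an itch receptor of another group of neurons, was lower after the lesion in Mettl14cKO (53.7 to 25.5 CPM, log2 -1.07, SE 0.20, adjusted p = 0.0150), a call lost without naive library 1, SNLD1 library 1 or SNLD1 library 2 (0.0725 to 0.0806). In wild type Mrgpra3 did not pass by edgeR. Averaged over genotypes its log2 fold change was -0.71 and passed without any 1 library. The summed level of the 7 markers was 474 to 612 CPM in wild-type naive, 622 to 666 in wild-type SNLD1, 585 to 604 in Mettl14cKO naive and 564 to 577 in Mettl14cKO SNLD1 libraries, and their part in the Nppb and Sst values was not tested.

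Sst encodes somatostatin. It stood at 6.48, 5.18 and 9.96 CPM in wild-type naive and 10.9, 4.58 and 1.71 CPM in wild-type SNLD1 libraries, the widest spread of its 4 groups. In Mettl14cKO it was 11.8, 4.71 and 6.21 CPM in naive and 7.64, 7.89 and 7.29 CPM in SNLD1 libraries. The intervals of its injury effects ran from log2 -1.33 to 0.57 in wild type and from -0.96 to 0.96 in Mettl14cKO.

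**Figure D2:**
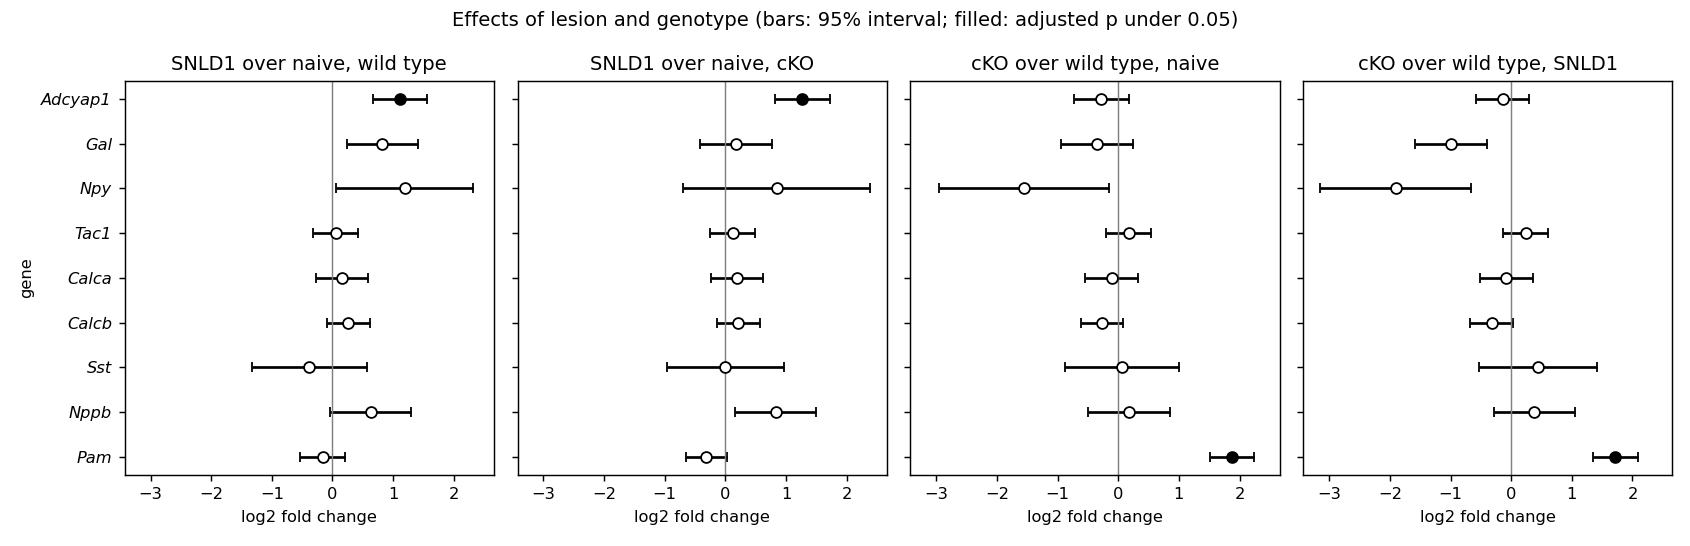
Fitted log2 fold changes (horizontal axis) of the 9 tested genes in the 4 comparisons between groups. Points are edgeR estimates with 95% intervals, and filled points passed at an adjusted p under 0.05. Adcyap1 is filled in both injury panels and Pam in both genotype panels.

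Pam differed between genotypes and not detectably with the lesion. The wild-type libraries stood at 14.3, 10.4 and 14.4 CPM in naive and 12.3, 12.2 and 10.7 CPM in SNLD1 ganglia. The Mettl14cKO libraries stood at 44.5, 52.7 and 46.6 CPM in naive and 38.9, 38.0 and 38.9 CPM in SNLD1 ganglia. All 6 mutant libraries lay above all 6 wild-type libraries. The difference was 3.66-fold in naive ganglia (log2 1.87, 95% interval 1.51 to 2.23, edgeR adjusted p = 1.21e-05) and 3.28-fold after the lesion (log2 1.72, 1.35 to 2.08, adjusted p = 6.07e-05). Pam was the 1 tested member of 9 that passed in naive ganglia, beside 0.286% of all genes in either direction and 0.173% as higher, and the 1 that passed at SNLD1, beside 1.46% and 0.948%. Its p-value had rank 3 among the 13291 genes in each of these comparisons. Both calls passed without any 1 library (adjusted p up to 0.000290 and 0.00133).

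The injury effect on Pam was log2 -0.16 in wild type (95% interval -0.53 to 0.21, unadjusted p = 0.383) and -0.31 in Mettl14cKO (-0.66 to 0.03, adjusted p = 0.525). In the mutant all 3 lesioned libraries lay below all 3 naive libraries. The injury effects differed by -0.15 between genotypes (-0.66 to 0.35, adjusted p = 0.998). The summed level of 5 fibroblast markers was higher in Mettl14cKO in both conditions. It was 1720 to 1937 CPM in wild-type naive and 1976 to 3374 in Mettl14cKO naive libraries. In the corresponding SNLD1 libraries it was 1696 to 2142 and 2616 to 4277 CPM, with no marker at 0. Dcn made up most of the SNLD1 sums, at a mean of 1593 CPM in wild type and 3111 CPM in Mettl14cKO. Of the 5, 0 passed in naive ganglia by edgeR (2 at an unadjusted p under 0.05) or DESeq2, and Dcn (log2 0.97) and Pdgfra (log2 1.43) were higher in Mettl14cKO at SNLD1, where 1 to 2 of the 5 passed with 1 library left out. Markers of other cells also passed at SNLD1. Tpsab1 of mast cells was higher in Mettl14cKO (mean 10.5 CPM) and near absent in wild type (mean 0.0381 CPM). That wild-type mean is below the level of 3 counts in each of its libraries (0.343 to 0.460 CPM). Ncmap of myelinating Schwann cells was also higher (log2 1.18). Nefh of large myelinated neurons (-0.92) and Mrgpra3 (-1.03) were lower. Each of these markers alone passed in its list, of 6, 7, 7 and 3 genes in that order. In the same order, the lists summed to 71.4 to 92.2, 3743 to 4114, 1263 to 1525 and 27.1 to 29.7 CPM in Mettl14cKO SNLD1 libraries. In wild-type SNLD1 libraries they summed to 52.9 to 63.5, 2793 to 4927, 1432 to 1573 and 50.2 to 61.8 CPM. In naive ganglia Nefh alone passed among the fixed markers (-0.75). The part of these cells in the values of Pam and the other members was not tested.

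None of the tested genes next to Pam passed. Pam spans 97821091 to 98095853 on chromosome 1, minus strand. Of 23 other genes of the RefSeq table within 1 Mb, 6 were tested, and 0 passed in either condition by edgeR or DESeq2, with 0 at an unadjusted p under 0.05. In naive ganglia Gin1, 27.4 kb away, stood at 22.2 CPM in wild type and 22.3 CPM in Mettl14cKO (log2 0.01, SE 0.17). Ppip5k2, an inositol pyrophosphate kinase gene 50.7 kb away, stood at 146 and 139 CPM (log2 -0.07, SE 0.21). D1Ertd622e, 159 kb away, stood at 14.9 and 17.0 CPM (log2 0.20, SE 0.21). The long non-coding gene B230216N24Rik, which overlaps Pam, stood at 3.40 and 3.44 CPM (log2 0.04, SE 0.46). Reads of overlapping genes can be told apart only where strand is counted, which is not given in the sources used here.

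**Figure D3:**
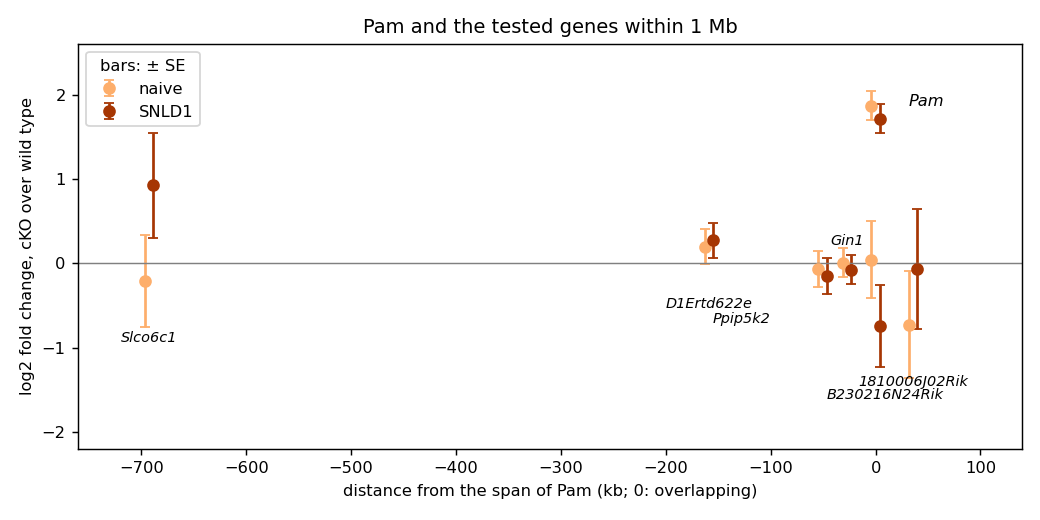
Log2 fold change of Mettl14cKO over wild type (vertical axis) for Pam and the 6 tested genes within 1 Mb, by distance from the Pam span in kb (horizontal axis). Points are edgeR estimates with ± SE in naive and SNLD1 ganglia. Pam stands at 1.87 and 1.72, and the neighbours lie between -0.75 and 0.93.

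The genes whose pattern was most like that of Pam over the 12 RNA-seq libraries were Nrg1, Edem1, A930005H10Rik, Slc39a8 and Lrrc3b. Likeness was the root mean square difference of centred log2 CPM, 0.25 for Nrg1, 0.31 for Edem1, 0.38 for A930005H10Rik, 0.40 for Slc39a8 and 0.42 for Lrrc3b, where Pam itself had an SD of 0.91. Nrg1, the gene of the growth factor neuregulin, was higher in Mettl14cKO by log2 1.49 in naive and 1.62 in SNLD1 ganglia. Edem1, which takes part in the disposal of misfolded glycoproteins, was higher by 1.51 and 1.26. Slc39a8, a metal ion transporter gene, had fitted differences of 1.62 and 1.30 that did not pass (adjusted p = 0.125 and 0.137). For Gal the 5 most alike genes were Birc5 (0.30), Ppp4r4 (0.32), Tes (0.33), Plin2 (0.33) and Azin1 (0.35), where Gal itself had an SD of 0.57. All of them share the same libraries with the gene they resemble.

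No tested gene of the list of neuropeptide processing enzymes passed in either injury or either genotype comparison. The list is wider than the enzymes that act before Pam, as it also holds other peptidases (such as Mme and Ide) and enzyme partners (such as Scg5). Of its 20 genes 17 were tested, with 0 passing by edgeR or DESeq2 in each of the 4 comparisons. At an unadjusted p under 0.05 there were 3, 1, 0 and 2 (wild-type injury, Mettl14cKO injury, naive genotype, SNLD1 genotype). Their median log2 fold changes in that order were -0.05, 0.01, 0.02 and 0.07, beside medians of all genes from -0.01 to 0.01. Pcsk1, the prohormone convertase of dense core vesicles, stood at 154 and 211 CPM in wild-type naive and SNLD1 ganglia (log2 0.46, SE 0.16, adjusted p = 0.363). Scg5, a chaperone of the convertase Pcsk2, stood at 280 CPM in wild-type and 384 CPM in Mettl14cKO SNLD1 ganglia (log2 0.46, SE 0.15, adjusted p = 0.153). Cpd, a carboxypeptidase gene, stood at 92.0 and 69.3 CPM in the same groups (log2 -0.41, SE 0.15, adjusted p = 0.208).

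The 10 genes of copper and ascorbate supply and of Pam binding were all tested, and 0 passed by edgeR or DESeq2 in these 4 comparisons, with 1, 0, 1 and 0 at an unadjusted p under 0.05. The copper importer gene Slc31a1 stood at 106 CPM in wild-type and 112 CPM in Mettl14cKO naive ganglia (log2 0.08, SE 0.14). The ascorbate transporter genes Slc23a1 and Slc23a2 had fitted naive genotype effects of -0.82 (SE 0.35) and 0.30 (SE 0.19).

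Of 52 other peptide precursor genes 14 were tested. In the injury comparison of each genotype and in naive ganglia 0 passed by edgeR or DESeq2, with 3, 2 and 4 at an unadjusted p under 0.05. Pthlh, the gene of parathyroid hormone-related peptide, was lower in Mettl14cKO SNLD1 than in wild-type SNLD1 ganglia (4.86 against 11.5 CPM, log2 -1.24, SE 0.28, adjusted p = 0.0321), a call lost without any of 5 of the 6 libraries (adjusted p 0.0520 to 0.190). Averaged over conditions Pthlh was lower by 1.06 on the log2 scale and passed without any 1 library. Vgf, a granin-like precursor, rose when the genotypes were averaged (0.802 to 3.28 CPM, log2 1.98, SE 0.39, adjusted p = 0.00730), with 1.83 in wild type and 2.13 in Mettl14cKO that did not pass alone. Ucn2 and Adm, which encode urocortin 2 and adrenomedullin, were higher in Mettl14cKO averaged over conditions (0.276 against 2.57 CPM and 1.16 against 3.14 CPM). The Ucn2 call was lost without any of 8 of the 12 libraries (adjusted p 0.0588 to 0.475), and the Adm call without Mettl14cKO naive library 2 (adjusted p = 0.0506).

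Among 26 tested genes of dense core vesicle cargo and release, Bdnf, which encodes a neurotrophin stored in these vesicles, was the 1 that passed by edgeR in the injury comparison of each genotype. DESeq2 passed 2 in wild type and 1 in Mettl14cKO. Its level rose from 96.2 to 308 CPM in wild type (log2 1.68, SE 0.20, adjusted p = 7.32e-05). In Mettl14cKO it rose with a log2 fold change of 1.90 (SE 0.20, adjusted p = 4.58e-05; mean levels 76.1 and 285 CPM). Both calls passed without any 1 library. In the genotype comparisons of naive and of SNLD1 ganglia 0 of the 26 passed by edgeR, with 0 in naive and 5 in SNLD1 ganglia at an unadjusted p under 0.05, and DESeq2 passed 2 as lower at SNLD1. Cadps, a priming factor of vesicle release, stood at 281 CPM in wild-type and 192 CPM in Mettl14cKO SNLD1 ganglia (log2 -0.55, SE 0.14, adjusted p = 0.0588). Averaged over conditions Cadps was the 1 of the 26 that passed by edgeR (log2 -0.38, SE 0.10, adjusted p = 0.0437), a call lost without any of 10 of the 12 libraries (0.0533 to 0.126).

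Of 28 receptor genes of the member peptides 14 were tested. Npy1r, a receptor of neuropeptide Y, rose in Mettl14cKO from 71.5 to 143 CPM (log2 1.0, SE 0.21, adjusted p = 0.0319), a call lost without any of 5 of the 6 libraries (adjusted p 0.0545 to 0.134). In wild type it stood at 59.4 and 107 CPM (log2 0.86, SE 0.21, adjusted p = 0.0603), and averaged over genotypes it rose by 0.93 and passed without any 1 library. In the genotype comparisons of naive and of SNLD1 ganglia 0 of the 14 receptors passed by edgeR or DESeq2, with 2 and 1 at an unadjusted p under 0.05. Averaged over conditions 1 passed by each tool. This was Ramp2, a subunit of CGRP and adrenomedullin family receptors (4.84 against 8.34 CPM, log2 0.77, SE 0.19, edgeR adjusted p = 0.0333), a call lost without any of 9 of the 12 libraries (0.0546 to 0.104).

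Of 24 transcription factors and regulators tied to peptide genes 21 were tested. With the lesion 6 rose by edgeR in wild type (Atf3, Sox11, Jun, Crem, Socs3 and Smad1) and 4 in Mettl14cKO (Atf3, Sox11, Jun and Socs3). The list includes the signal regulator Socs3 and genes known to be induced by nerve injury, so it is no independent evidence of their direction. Crem, a factor of the CRE family, rose in wild type from 22.2 to 54.4 CPM (log2 1.30, SE 0.20, adjusted p = 0.00185). It stood at 20.6 and 35.2 CPM in Mettl14cKO (log2 0.78, SE 0.21, adjusted p = 0.109). The difference of its 2 injury effects was -0.52 (adjusted p = 0.998). Of the wild-type calls, that of Jun was lost without any of 5 of the 6 libraries (adjusted p 0.0606 to 0.149), that of Smad1 without any of 3 (0.0566 to 0.152) and that of Socs3 without either of 2 (0.0610 and 0.0625). At SNLD1, Atf3 was lower in Mettl14cKO (log2 -1.08, SE 0.22, adjusted p = 0.0202), a call lost without any of 3 of the 6 libraries (0.0635 to 0.140).

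In the m6A pulldown of wild-type ganglia no member stood above its input in the fitted value. Each of the 9 tested members had a negative fitted log2 ratio of IP over input in naive ganglia, from -0.69 (Sst) to -5.13 (Npy), and in SNLD1 ganglia, from -0.44 (Sst) to -3.87 (Npy). Over all 14705 genes tested, the medians were 0.07 and 0.10, and 48.2% and 47.3% of genes were below 0. None of the members passed in either condition, and 0% of all genes did by edgeR, with 915 and 608 genes, 1 of them a member in each, at an unadjusted p under 0.05. DESeq2 passed 6 genes in naive and 0 in SNLD1 ganglia. With the replicate number as a block, edgeR passed 1078 and 936 genes (closing section). Gal, Calca and Calcb were among them in both conditions and Nppb at SNLD1, all lower in IP. The numbers were not taken to pair IP with input. Library totals ran from 846785 to 19653733 counts and the median SE of a log2 value from 0.955 to 1.51, against 0.170 to 0.340 in RNA-seq. IP and input are relative to their own totals, so these ratios are no absolute m6A levels.

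Gal stood at 115 and 207 CPM in the naive inputs and at 8.50, 24.5 and 89.5 CPM in the naive IP libraries. At SNLD1 it stood at 315 and 667 CPM in the inputs and at 50.8, 35.1 and 250 CPM in the IP libraries. All IP values lay below all input values in each condition. The fitted ratios were log2 -1.98 (95% interval -4.13 to 0.17) and -2.13 (-4.28 to 0.02). Calca stood at 7421 and 5816 CPM in the naive inputs and at 1760, 1965 and 5091 CPM in the naive IP libraries, and Nppb at 48.7 and 43.1 against 5.54, 13.2 and 25.1 CPM. For both, the IP and input libraries did not overlap in either condition. The share of all genes whose IP and input libraries lie apart was not counted, so whether this is particular to these members cannot be said. For each of the 9 tested members the third IP library was the highest of its 3 in both conditions. Over all genes tested, counts of the third IP libraries correlated with those of the inputs by rank (Spearman) at 0.848 to 0.937. For IP libraries 1 and 2 these correlations were 0.615 to 0.754. The TMM factors of the third IP libraries were 0.894 and 0.893, against 1.15 to 1.35 in the other IP libraries. The part of this likeness to input in the fitted ratios was not tested.

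Tac1 stood at 1139 and 522 CPM in the naive inputs and at 363, 291 and 753 CPM in the naive IP libraries, and at 1205 and 887 against 411, 324 and 687 CPM at SNLD1. Calcb stood at 1143 and 2050 against 111, 398 and 971 CPM in naive and at 1362 and 2033 against 182, 488 and 1367 CPM at SNLD1. IP and input thus overlapped for Tac1 in naive ganglia and for Calcb at SNLD1, and were apart in the other condition of each. Sst stood at 14.6 and 9.51 CPM in the naive inputs, 4.99, 1.89 and 14.8 CPM in the naive IP libraries, 1.19 and 19.4 CPM in the SNLD1 inputs and 8.24, 4.53 and 11.2 CPM in the SNLD1 IP libraries. Vip had 0 to 2 counts in the naive libraries and 0 to 10 at SNLD1, and was not tested.

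**Figure D4:**
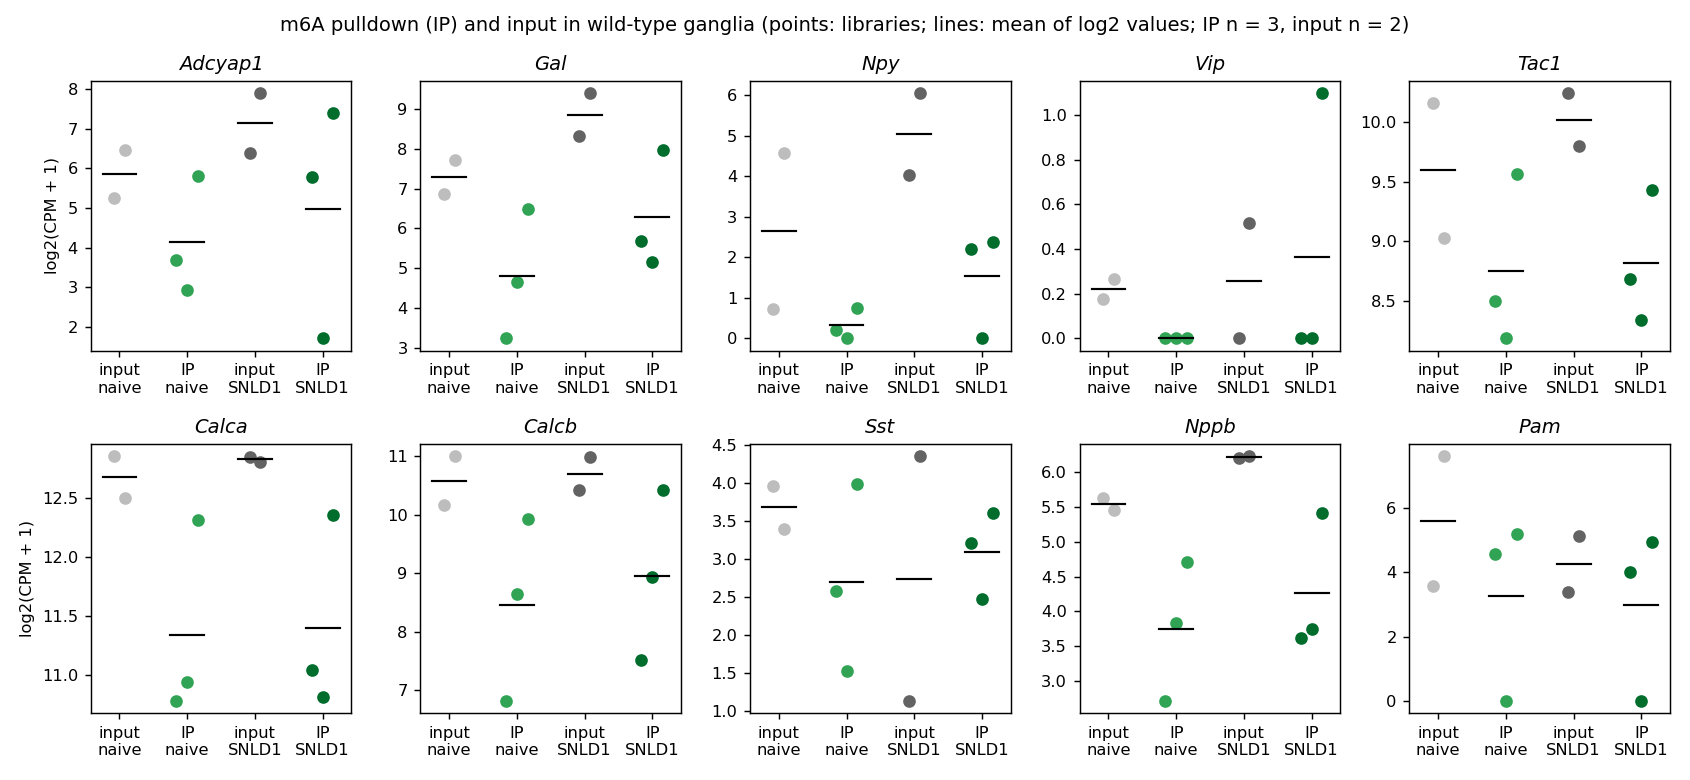
Level of each gene in the 10 MeRIP-seq libraries as log2(CPM + 1) (vertical axis, a separate scale for each gene that need not start at 0). Points are single libraries and lines are means of the log2 values, with 2 input and 3 IP libraries in each condition. Gal, Calca and Nppb lie lower in every IP library than in every input library of the same condition. The share of all genes that do so was not counted.

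The inputs of Pam disagreed among themselves. In the naive inputs Pam stood at 10.9 and 193 CPM, and in the SNLD1 inputs at 9.51 and 33.9 CPM, although all 4 were wild type. The wild-type RNA-seq libraries held 10.4 to 14.4 CPM. In the IP libraries Pam stood at 22.5, 0 and 35.3 CPM in naive and 15.2, 0 and 29.4 CPM at SNLD1, and the libraries at 0 were naive IP library 2 and SNLD1 IP library 2, whose floors of 3 counts stood at 2.83 and 1.70 CPM. Npy was also uneven, at 0.644 and 22.8 CPM in the naive inputs and 15.5 and 65.4 CPM in the SNLD1 inputs, against 0.156, 0 and 0.683 CPM and 3.63, 0 and 4.22 CPM in the IP libraries. The fitted ratios of Pam, log2 -2.37 in naive (95% interval -5.46 to 0.72) and -0.56 at SNLD1 (-3.64 to 2.53), rest on these libraries.

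For Adcyap1 and Gal the fitted change with the lesion was positive in inputs and in IP libraries, as in the wild-type RNA-seq libraries, and did not pass the test. Adcyap1 stood at 37.3 and 87.2 CPM in naive and 82.0 and 236 CPM in SNLD1 inputs (log2 1.36, SE 1.32), and at 11.9, 6.60 and 54.7 CPM in naive and 54.1, 2.26 and 168 CPM in SNLD1 IP libraries (log2 1.61, SE 1.09). For Gal the fitted changes were 1.61 (SE 1.15) in inputs and 1.45 (SE 0.94) in IP libraries. No member and 0% of all genes passed in inputs, in IP libraries or in the change of IP over input with injury, with 126, 124 and 30 genes and 0 members at an unadjusted p under 0.05. DESeq2 passed 1, 8 and 0 genes in these comparisons. The same-numbered naive and SNLD1 IP libraries deviated together, and a fit of the 6 IP libraries with these pairs as a block passed 4 of 12735 genes and 0 members, with 838 genes and 3 members at an unadjusted p under 0.05. In it the change with the lesion was log2 1.60 for Gal (95% interval 0.65 to 2.56, adjusted p = 0.596), higher at SNLD1 in 3 of 3 pairs. For Calcb it was 0.50 (0.10 to 0.91, adjusted p = 0.737), also higher in 3 of 3 pairs, and for Adcyap1 1.43 (0.07 to 2.79, adjusted p = 0.756), higher in 2 of 3. Pam was higher at SNLD1 in 0 of 3 pairs, with library 2 at 0 in both conditions (log2 -0.41, -1.65 to 0.82). The narrowest interval of a member's change of IP over input, that of Tac1, ran from log2 -2.74 to 2.11, so these libraries set only wide bounds on such changes.

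Single m6A sites were listed for 4 of the 10 members, Calca, Calcb, Adcyap1 and Pam, and for 6 none was listed (Gal, Npy, Vip, Tac1, Sst and Nppb). A site was counted for a member where it lay within the gene span and on its strand, or for Calcb, whose strand was not used, within the span. The naive list held 3 member sites, all in Calca, and the SNL list 10, with 5 in Calca, 3 in Adcyap1, 1 in Calcb and 1 in Pam. Over all symbols with a span, 18.7% had a site in the naive and 21.7% in the SNL list. There was 1 library a condition, so no difference was tested, and the lists differed in size, 14446 and 18677 sites.

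Capitals mark the modified base in the 5 letters around a site, shown because they vary between the sites of 1 gene. The site at position 114632556 of chromosome 7 (mm10, minus strand, tgAcc) in Calca was the 1 shared by both lists, with 1 mutated read of 13 in each (7.69%, Clopper-Pearson 95% interval 0.195 to 36.0). The best covered was Calca 114634531 (ggAct), mutated in 2 of 22 reads of the naive list (9.09%, 1.12 to 29.2). The other naive Calca site was 114631611 (aaAca, 1 of 10 reads), and the other SNL sites of Calca were 114631543 (gaAct, 1 of 6), 114631569 (tgAct, 1 of 12), 114631587 (ggAca, 1 of 11) and 114631726 (tgAct, 1 of 6). Those 4 and the naive aaAca site lay within a stretch of the gene 4631 to 4814 bases after its start.

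In Adcyap1 the SNL sites were at positions 93200100 (ggAct, 1 of 4 reads), 93202274 (agAct, 1 of 3) and 93204034 (aaAca, 1 of 3) of chromosome 17, plus strand. In Calcb the site was at 114722018 of chromosome 7 (tgAcc, 1 of 6). In Pam it was at 98095562 of chromosome 1 (ggAcc, 1 of 2 reads), 70 bases after a transcription start. Whether a site lies in an exon, an intron or an untranslated region was not analysed here. With 2 to 22 reads over each base and a single mutated read at all but 1 of the 12 distinct positions, the intervals are wide and cover counting error only. Calca, with 41053 to 73125 counts in the wild-type RNA-seq libraries, had the deepest of these sites, and Pam, with 76 to 189 counts, the shallowest. Tac1, with 2618 to 5019 counts in the same libraries, had no site listed.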

How the data were processed

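RNA-seq was analysed in 12, MeRIP-seq in 10 and miCLIP in 2 libraries of mouse DRG. Per the labels' protocols, poly(A) RNA was selected and libraries followed the Smart-seq2 method. The tables deposited by the authors hold counts per gene symbol, not normalized, and were checked to be whole numbers. The deposited miCLIP lists give each site a score, of unit other, that equalled the mutated reads divided by the reads over the base at every site. The submitters' processing notes name Trimmomatic, STAR, DESeq2 and mm10, with no versions. The sources used here do not name the counter, its strand setting or the site caller. IDs are symbols without coordinates, and spans and starts came from RefSeq tables of GRCm38.p6.

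Counts were fitted in R 4.3.3 with edgeR 4.0.16: filterByExpr by group (13291 and 14705 genes kept), TMM, and the quasi-likelihood test over all libraries of an assay, with Benjamini-Hochberg adjustment over all genes tested and calls at an adjusted p under 0.05. Alternatives were relative log expression factors, no filter, DESeq2 1.42.0, a replicate block, a fit of only the groups compared, each library left out, and MeRIP-seq without its 3 shallowest libraries (chosen after seeing the data). Sites used Python 3.11.15, pandas 2.3.3 and scipy 1.17.1, and figures matplotlib 3.10.9. The pipeline was tested on simulated data. Replicate numbers were checked by the correlation of deviations from group means. Those of the 3 naive and SNLD1 IP pairs were 0.643, 0.434 and 0.693, so a fit of the IP libraries with these pairs as a block was added after seeing the data. The other numbers were not taken as pairs (the closing section gives the check).

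Genes named were all members. From each other list, genes called in an RNA-seq comparison and the 3 of smallest p were eligible. For Pam and Gal the 5 most alike genes, and for Pam the genes within 1 Mb, were named, with Mettl14 and Atf3 as checks. Members, lists and tests were chosen with earlier results of these data known. A planned count of amidation signals in the precursor proteins was not run, since protein sequences were not used here.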

Additional observations from a re-analysis of the deposited data

How the results depend on the processing

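Over the member values under all alternatives, 1224 kept their direction and their side of the threshold, 25 passed only under the alternative, 12 passed only in the reported fit, 102 changed sign without passing in either, and 0 reversed. The number of members called moved as follows. With no filter on low counts it was 2 in place of 1 for the injury effect in wild type, 2 for that in Mettl14cKO, 2 for the naive genotype effect, 3 for the SNLD1 genotype effect, 4 for the averaged injury effect and 3 in place of 2 for the averaged genotype effect. The members added were Gal (wild-type injury, SNLD1 and averaged genotype, averaged injury), Npy (naive and SNLD1 genotype, averaged injury) and Nppb (Mettl14cKO and averaged injury). DESeq2 added Gal at SNLD1, for 2 members, and in the averaged genotype effect, for 3. With 1 library left out, the counts ranged from 0 to 2 for wild-type injury, 1 to 3 for averaged injury and 1 to 3 for averaged genotype. The cause was not tested. For miCLIP, asking for at least 3 mutated reads left 0 naive, 0 SNL and 0 shared member sites, and at least 20 reads over the base left 1, 0 and 0.

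With a replicate block the members called were 2 for averaged injury (Nppb added, adjusted p = 0.0422), 3 for IP over input in naive (Gal, Calca and Calcb, all lower) and 4 at SNLD1 (Nppb added), with 1078 and 936 genes in place of 0. The third IP libraries have no input of their number, so under this block they gave no direct comparison of IP with input. Same-numbered libraries correlated in their deviations at -0.0714 to 0.559 over 18 RNA-seq pairs, 7 of them over 0.1, and at -0.253 to 0.693 over 13 MeRIP-seq pairs, 5 of them over 0.1. Those 5 were same-numbered naive and SNLD1 libraries within IP (3 pairs, taken as pairs) and within input (2 pairs, too few to settle it). With 2 inputs a group the deviations mirror each other, so both input pairs hold the same value, 0.373. IP and input of a number correlated at or below -0.0307. A block over the 6 IP libraries called 0 members and 4 genes. Elsewhere the numbers were not taken as pairs.

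Counts over all genes moved by over 1.5 times with no filter (256 for wild-type injury, 281 for Mettl14cKO injury, 191 and 570 for the naive and SNLD1 genotype effects, 560 and 857 for the averaged ones), with DESeq2 (194, 73 and 405 for Mettl14cKO injury and the naive and SNLD1 genotype effects), and with only the groups compared (126 at SNLD1). With 1 library left out, the counts fell as low as 61 against 136 for wild-type injury, 48 against 91 for Mettl14cKO injury, 12 against 38 and 37 against 194 for the naive and SNLD1 genotype effects, and 212 against 340 and 228 against 442 for the averaged injury and genotype effects, so the shares of all genes printed beside the members move by over 1.5 times as well. Relative log expression factors moved the median of all genes by -0.11 in the change of IP over input and by 0.11 within inputs. The MeRIP-seq libraries were uneven in depth, and calls were 0 both with all libraries and without the 3 shallowest. The part of depth in the pulldown values was not tested.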
